A study of Homo sapiens with 24 samples.

Results

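The neutrophil-attracting CXC chemokines described here are the 6 genes IL8 (the older symbol of CXCL8, used in the deposited tables), CXCL1, CXCL2, CXCL3, CXCL5 and CXCL6, out of 48162 genes listed in each table. They were taken by symbol and had been selected on their FPKM in these 8 groups, so their levels and differences are given as descriptions, without p-values. RNA-seq had been done on 24 libraries, 3 for each of 8 groups, which the series' design text calls biological triplicates. The recipient cells were 2 human pancreas lines that carry no cancer label: hTERT-HPNE (HPNE), a line immortalised with telomerase, and HPDE-H6c7 (HPDE), an immortalised line of duct epithelium. Each line is a single established line, so the libraries of a group repeat the treatment and not the donor. All cells were grown in 24-well plates in keratinocyte serum-free medium with penicillin-streptomycin and were then kept for 24 h under 1 of 4 conditions. These were fresh serum-free medium (untreated), medium left over from the vesicle isolation (residual medium, the study's negative control), 1e10 extracellular vesicles (EV) per well of the pancreatic carcinoma line PANC-1, or 1e10 vesicles per well from PPCL-68 cells. The labels do not say from which cells the residual medium came. The design asks what the vesicles of pancreatic cancer cells do to the recipient cells beyond either control.

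These chemokines carry a glutamate-leucine-arginine motif before the first cysteines and act through the receptors CXCR1 and CXCR2, through which they draw neutrophils out of the blood. Epithelial cells and fibroblasts make little of them at rest and switch them on after interleukin-1, tumour necrosis factor or bacterial products, mainly through NF-kB, with AP-1 and C/EBP factors on some promoters; their messenger RNAs are also short-lived and are stabilised on stimulation. In the pancreas they are known from pancreatitis and from tumours, where they are linked to neutrophil infiltration and vessel growth.

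The 6 genes lie together on chromosome 4. In the hg19 coordinates of the tables, IL8 is at chr4:74606223-74609433, CXCL6 at chr4:74702214-74714781 and CXCL1 at chr4:74735110-74736959 on the plus strand, and CXCL5 at chr4:74861359-74864496, CXCL3 at chr4:74902306-74904524 and CXCL2 at chr4:74962752-74965010 on the minus strand. All 6 matched an entry in the RefSeq promoter table (GRCh38.p14). The 130 bases before each RefSeq transcription start are printed 5′ to 3′ on the gene's strand, since they show what the 6 genes share ahead of any expression value; capitals mark the NF-kB-type motif GGAATTTCC. The windows are chr4:73740439-73740568 (plus) for IL8, chr4:73869263-73869392 (plus) for CXCL1, chr4:74099196-74099325 (minus) for CXCL2, chr4:74038690-74038819 (minus) for CXCL3, chr4:73998678-73998807 (minus) for CXCL5 and chr4:73836548-73836677 (plus) for CXCL6.
IL8: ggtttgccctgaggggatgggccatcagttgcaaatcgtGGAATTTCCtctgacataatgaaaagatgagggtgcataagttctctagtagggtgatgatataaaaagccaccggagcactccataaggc
CXCL1: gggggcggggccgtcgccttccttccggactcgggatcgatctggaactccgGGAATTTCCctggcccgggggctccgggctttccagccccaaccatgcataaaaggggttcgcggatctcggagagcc
CXCL2: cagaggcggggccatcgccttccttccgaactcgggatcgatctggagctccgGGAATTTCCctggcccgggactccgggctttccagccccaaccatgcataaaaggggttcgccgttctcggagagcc
CXCL3: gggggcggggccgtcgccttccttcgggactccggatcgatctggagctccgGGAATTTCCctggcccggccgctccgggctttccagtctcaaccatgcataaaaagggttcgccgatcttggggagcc
CXCL5: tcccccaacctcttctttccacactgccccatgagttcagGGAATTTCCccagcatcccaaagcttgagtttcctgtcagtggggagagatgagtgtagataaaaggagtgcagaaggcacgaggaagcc
CXCL6: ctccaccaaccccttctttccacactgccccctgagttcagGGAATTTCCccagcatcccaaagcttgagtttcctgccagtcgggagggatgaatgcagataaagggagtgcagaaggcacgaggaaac

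GGAATTTCC, searched on both strands of the 250 bases before the start, was present in 6 of the 6 promoters and in 0.428% of the 27305 promoters in the table. It lay on the gene's strand from 91 to 69 bases before the start in all 6: its first base was at -91 in IL8, -90 in CXCL5, -89 in CXCL6, -78 in CXCL1 and CXCL3 and -77 in CXCL2. The longer form with another G at its 5′ end, which contains the first motif, was present in 5 of the 6, all but IL8, and in 0.157% of all promoters. The AP-1 motif TGANTCA was present only in IL8, at -137 to -131 and so outside the printed stretch, and in 6.6% of all promoters. The C/EBP-ATF motif TGATGNAA was present in 0 of the 6 and in 3.19% of all. Other forms of C/EBP site were not searched for, so their absence cannot be read from this. On the gene's own strand, TATAAA was present in IL8 at -31 to -26 and in 7.17% of all promoters, and CATAAA stood at the same place in CXCL1, CXCL2 and CXCL3, against 5.30% of all. Aligned over the 250 bases, CXCL5 and CXCL6 were 85.3% identical, CXCL1 and CXCL3 81.4%, CXCL2 and CXCL3 73.4%, and CXCL1 and CXCL2 70.1%, while IL8 was 44.3 to 48.1% identical to the other 5. CXCL5 and CXCL6 thus have the most similar promoters of the 6, and the values that follow show them at very different levels in HPNE cells.

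Values are FPKM, that is, reads scaled to the length of the gene and to the reads of the library, so levels of different genes may be compared within a library. The libraries held 29874928 to 46490312 reads assigned to genes in HPNE and 29209142 to 42206773 in HPDE. Intervals and floors from these numbers cover counting error only. Against their markers, the HPDE libraries fitted the epithelial label, with EPCAM at 148 to 192 FPKM and KRT19 at 317 to 1139.7 FPKM. In HPNE 3 of 5 epithelial markers were near 0, with at most 12 reads for EPCAM, 20 for CDH1 and 54 for KRT19, and KRT8 and KRT18 reached 6.28 and 5.13 FPKM. The mesenchymal markers VIM and FN1 stood at 149 to 539 and 5747 to 8130.02 FPKM in HPNE and at 19.6 to 28.6 and 52.9 to 126 FPKM in HPDE. Of 7 leukocyte markers, PTPRC had at most 6 reads in any library and CD14 was highest, at up to 1.18 FPKM in HPNE and 2.07 FPKM in HPDE; their sum was 0.0532 to 1.19 FPKM in HPNE and 0.530 to 2.21 FPKM in HPDE. In each HPNE group 1 library stood apart from the other 2, by 2.05 to 3.31 times the distance between those 2 over all genes tested: untreated replicate 3, residual medium replicate 3, PANC-1 vesicle replicate 1 and PPCL-68 vesicle replicate 1. In HPDE this ratio was 1.08 to 1.24. No pair of libraries agreed within sampling noise. In bulk RNA, fewer expressing cells and less RNA per expressing cell cannot be told apart.

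In HPNE cells 5 of the 6 chemokine genes had group means of 0.478 to 3.21 FPKM in fresh medium and of 28.3 to 2514 FPKM in residual medium and with either kind of vesicle. IL8, the best known neutrophil attractant of the family, was at 2.31, 2.64 and 4.70 FPKM in the 3 untreated libraries (122 to 306 reads). It was at 1799, 1818 and 859 FPKM in residual medium, 1109, 1658 and 1461 FPKM with PANC-1 vesicles, and 2817, 2333 and 2393 FPKM with PPCL-68 vesicles. The untreated libraries were far below all others, and the third residual medium library, one of those that stood apart, was below every vesicle library. By rank among all genes of a library, IL8 moved from between 7768 and 9768 in untreated cells to between 12 and 28 in residual medium and to between 5 and 8 with PPCL-68 vesicles.

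CXCL1, first described as a melanoma growth factor, was at 0.736, 0.785 and 0.811 FPKM in untreated HPNE cells. In residual medium it was at 177, 138 and 243 FPKM, with PANC-1 vesicles at 183, 199 and 146 FPKM, and with PPCL-68 vesicles at 470.1, 181 and 200.3 FPKM. The treated groups overlapped, and the highest value came from PPCL-68 vesicle replicate 1, which stood apart over all genes too. CXCL1 was also the only one of the 5 that was highest, not lowest, in the third residual medium library.

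CXCL2 was at 1.14, 0.602 and 1.03 FPKM in untreated HPNE cells and at 33.6, 31.5 and 19.7 FPKM in residual medium. It was at 50.4, 66.3 and 48.9 FPKM with PANC-1 vesicles and at 115, 61.0 and 59.4 FPKM with PPCL-68 vesicles, so that both vesicle groups lay above residual medium without overlap. The share of all genes without such overlap was not computed. CXCL3, like CXCL1 and CXCL2 a GRO-type chemokine, was at 0.393, 0.467 and 0.574 FPKM in untreated cells and at 63.5, 59.5 and 20.0 FPKM in residual medium. It was at 35.3, 50.0 and 47.3 FPKM with PANC-1 vesicles, within the range of residual medium, and at 72.7, 83.1 and 93.2 FPKM with PPCL-68 vesicles, above it.

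CXCL5, an epithelium-derived attractant, separated the 2 kinds of vesicle in HPNE. It was at 0.967, 0.553 and 0.722 FPKM in untreated cells and at 183, 163 and 61.5 FPKM in residual medium. With PANC-1 vesicles it was at 27.3, 38.1 and 34.2 FPKM, below every residual medium library, and with PPCL-68 vesicles at 109.9, 124 and 133 FPKM, inside the residual medium range.

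CXCL6, an attractant close to CXCL5 in sequence, stayed near 0 throughout. It had 0 reads in 18 of the 24 libraries, at most 4 reads in an HPNE library and at most 2 in an HPDE library. At these depths 3 reads, the limit that a count of 0 allows, stand for 0.0376 to 0.0585 FPKM in HPNE and 0.0414 to 0.0598 FPKM in HPDE, so a lower level was not detectable. CXCL6 is the only one of the 6 whose gene overlaps another listed gene (PPBPP1), and the library kit kept no strand.

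**Figure D1:**
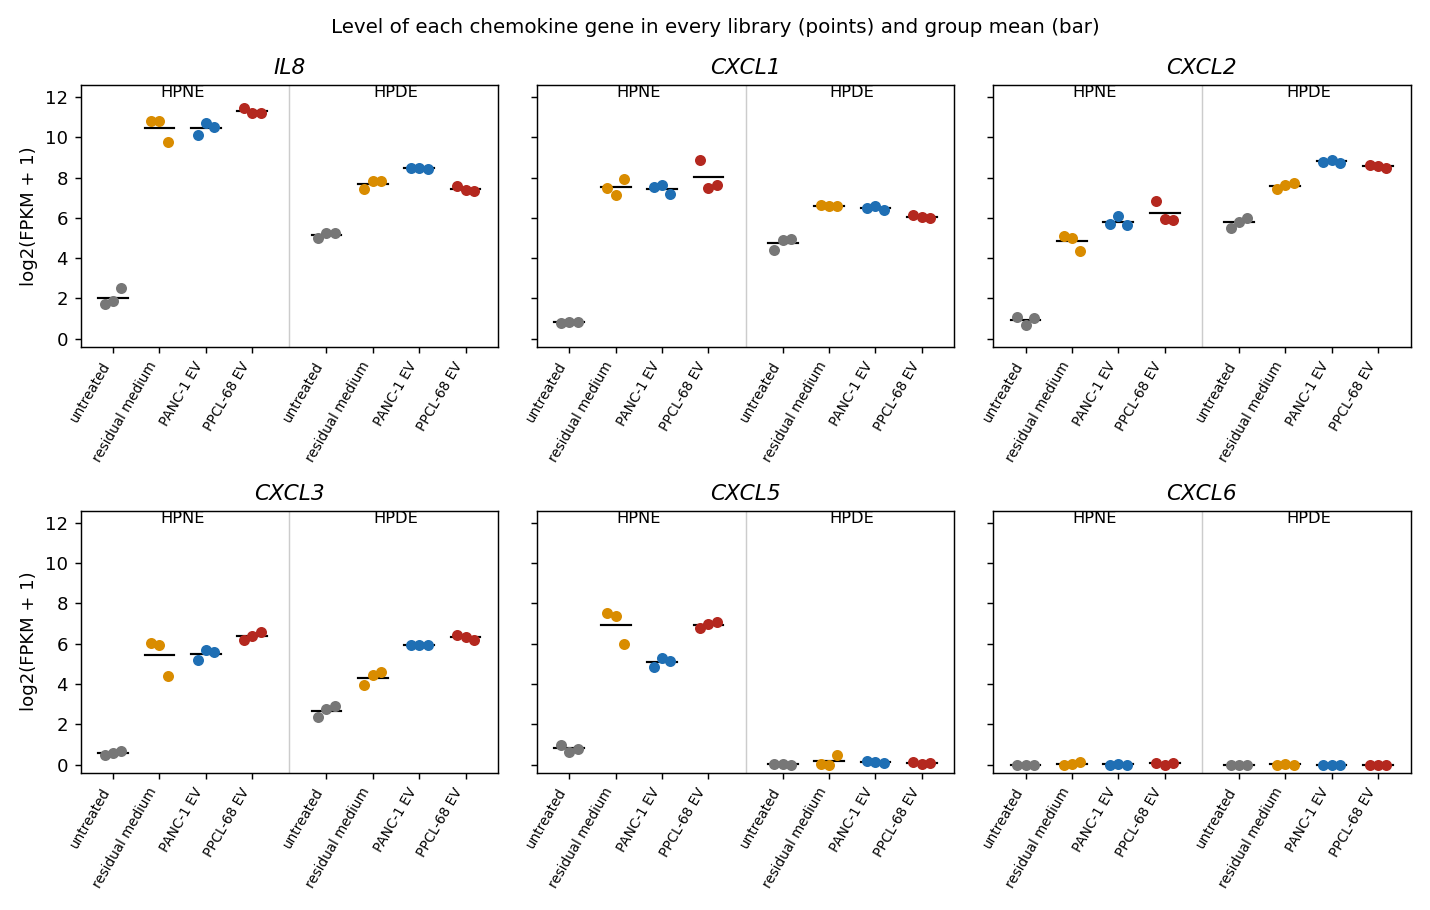
Level of each of the 6 chemokine genes, as log2(FPKM + 1), in every library (points, 3 a group) with the group mean (bar), for HPNE and HPDE cells under 4 treatments. In HPNE the untreated libraries of 5 genes lie far below all others, CXCL5 is near 0 in HPDE and CXCL6 is near 0 in both lines.

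Residual medium was compared with fresh medium first, in HPNE. The mean of 3 residual medium libraries was 464 times the untreated mean for IL8 (1492 ± 548 against 3.21 ± 1.29 FPKM, SD, n = 3), 239 times for CXCL1, 181 times for CXCL5, 99.7 times for CXCL3 and 30.6 times for CXCL2. Adding 1 to FPKM before taking log2 makes differences of genes near 0 look smaller than they are; on that scale they were 8.43 (SE 0.29) for IL8, 6.68 (SE 0.31) for CXCL1, 6.15 (SE 0.32) for CXCL5, 4.88 (SE 0.34) for CXCL3 and 3.90 (SE 0.26) for CXCL2. No untreated library overlapped a residual medium library for any of the 5, and the share of all genes without such overlap was not computed. The linear model (limma, Benjamini-Hochberg adjusted p under 0.05) called 5 of the 5 members tested, where it called 43.9% of the 11503 genes tested in HPNE. CXCL1, CXCL2, CXCL3 and CXCL5 entered the test only through the groups where they were high, since their untreated means were under 1 FPKM, so nothing is read from that count. Without residual medium replicate 3 the difference was 8.79 for IL8 and 5.40 for CXCL3, and the same 5 members were called without any 1 library.

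Both vesicle groups were also above fresh medium for the 5 genes. For IL8 the ratio of means to untreated was 438 with PANC-1 vesicles and 782 with PPCL-68 vesicles, for CXCL1 227 and 365, for CXCL2 59.7 and 84.8, for CXCL3 92.4 and 174, and for CXCL5 44.4 and 163. In each of these comparisons 5 of 5 members were called, where 21.1% of all genes were called for PANC-1 vesicles and 42.5% for PPCL-68 vesicles; as for residual medium, 4 of the 5 entered the test only through the groups where they were high, and nothing is read from these counts. All 3 sets of differences share the same untreated libraries and are therefore not independent of each other.

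Set against residual medium, PANC-1 vesicles left IL8, CXCL1 and CXCL3 of HPNE cells within the residual medium range. The log2 differences were -0.02 (SE 0.29) for IL8, -0.05 (SE 0.31) for CXCL1 and 0.04 (SE 0.34) for CXCL3. CXCL2 was 1.95 times as high (log2 difference 0.96, SE 0.26) and CXCL5 was at 0.245 of the residual medium mean (log2 difference -1.86, SE 0.32). These were the 2 of 5 members called, where 24.2% of all genes were called. CXCL5 was called under every alternative run, and the CXCL2 call was lost without PANC-1 vesicle replicate 2. Without residual medium replicate 3, CXCL3 was called lower with a log2 difference of -0.48.

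PPCL-68 vesicles, against the same residual medium libraries, were higher for 4 of the 5 genes. The log2 differences were 1.41 (SE 0.26) for CXCL2, 0.94 (SE 0.34) for CXCL3, 0.83 (SE 0.29) for IL8 and 0.50 (SE 0.31) for CXCL1, with the CXCL1 groups overlapping, and -0.01 (SE 0.32) for CXCL5. CXCL2, CXCL3 and IL8 were called, 3 of 5 members, where 39.9% of all genes were called. Only the CXCL2 call held without each PPCL-68 library in turn and in the blocked fit, which adds the replicate number; the CXCL3 and IL8 calls were lost in each of these fits. Without residual medium replicate 3 the differences were 0.47 for IL8 and 0.42 for CXCL3, IL8 was no longer called, and CXCL5 was called lower at -0.50. Without PPCL-68 vesicle replicate 1, the CXCL1 difference was 0.07.

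Directly compared in HPNE, PANC-1 vesicles stood below PPCL-68 vesicles for each of the 5 genes. The log2 difference was -1.86 (SE 0.32) for CXCL5, 0.272 of the PPCL-68 mean, and it was -0.90 (SE 0.34) for CXCL3, -0.85 (SE 0.29) for IL8, -0.56 (SE 0.31) for CXCL1 and -0.44 (SE 0.26) for CXCL2. Libraries of the 2 vesicle groups did not overlap for CXCL5, CXCL3 and IL8 and overlapped for CXCL1 and CXCL2. The share of all genes without such overlap was not computed. CXCL5 alone was called, 1 of 5, where 5.47% of all genes were called, and it was called without each of the 6 libraries in turn.

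In untreated HPDE cells IL8, CXCL1, CXCL2 and CXCL3 stood higher than in untreated HPNE cells, and their ratios to untreated were smaller; CXCL5 was lower than in HPNE, and CXCL6 had 0 reads in both. IL8 was at 31.2, 36.5 and 37.3 FPKM in untreated cells, 175, 226 and 226 FPKM in residual medium, 357, 356 and 342 FPKM with PANC-1 vesicles, and 193, 167 and 161 FPKM with PPCL-68 vesicles. The PANC-1 vesicle libraries were above all others, and PPCL-68 vesicles overlapped residual medium. CXCL1 was at 20.2, 29.2 and 30.4 FPKM in untreated cells, 98.9, 95.9 and 94.3 FPKM in residual medium, 87.7, 95.2 and 83.2 FPKM with PANC-1 vesicles, and 70.6, 64.2 and 63.3 FPKM with PPCL-68 vesicles. Among the treated groups PPCL-68 vesicles were lowest, and the other 2 overlapped.

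CXCL2 and CXCL3 of HPDE cells were higher with either kind of vesicle than in either control, with no overlap. The share of all genes without such overlap was not computed. CXCL2 was at 44.5, 55.5 and 62.6 FPKM in untreated cells, 174, 200.1 and 209 FPKM in residual medium, 439, 471 and 429 FPKM with PANC-1 vesicles, and 401, 378 and 359 FPKM with PPCL-68 vesicles. CXCL3 was at 4.16, 5.67 and 6.60 FPKM in untreated cells, 14.2, 20.8 and 22.9 FPKM in residual medium, 60.5, 60.5 and 60.0 FPKM with PANC-1 vesicles, and 85.8, 80.5 and 70.9 FPKM with PPCL-68 vesicles. CXCL5 was near 0 in this line: it had at most 11 reads in any HPDE library except residual medium replicate 3, with 34 reads and 0.399 FPKM. CXCL5 and CXCL6 did not reach the mean of 1 FPKM needed for testing in HPDE, so 4 of the 6 members were tested there.

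Residual medium against fresh medium in HPDE gave ratios of means of 5.98 for IL8, 3.62 for CXCL1, 3.58 for CXCL2 and 3.52 for CXCL3. The log2 differences were 2.54 (SE 0.09) for IL8, 1.84 (SE 0.11) for CXCL1, 1.83 (SE 0.10) for CXCL2 and 1.64 (SE 0.15) for CXCL3. The 4 tested members were all called, where 20.0% of 12223 genes were called. Against fresh medium, PANC-1 vesicles were 10.1 times as high for IL8, 3.33 times for CXCL1, 8.23 times for CXCL2 and 11 times for CXCL3, and PPCL-68 vesicles were 4.96, 2.48, 6.99 and 14.4 times as high for the same genes in that order. All 4 were called in both comparisons, where 60.6% of all genes were called for PANC-1 vesicles and 66.3% for PPCL-68 vesicles.

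Against residual medium the 4 genes of HPDE cells differed among themselves. With PANC-1 vesicles the log2 difference was 1.62 (SE 0.15) for CXCL3, 1.2 (SE 0.10) for CXCL2, 0.76 (SE 0.09) for IL8 and -0.12 (SE 0.11) for CXCL1. With PPCL-68 vesicles it was 2.00 (SE 0.15) for CXCL3 and 0.96 (SE 0.10) for CXCL2, but -0.26 (SE 0.09) for IL8 and -0.54 (SE 0.11) for CXCL1. CXCL2, CXCL3 and IL8 were called for PANC-1 vesicles, 3 of 4, where 63.3% of all genes were called. All 4 were called for PPCL-68 vesicles, 2 of them higher and 2 lower, where 67.7% of all genes were called; the IL8 call was lost without residual medium replicate 2 or 3 and without PPCL-68 vesicle replicate 2 or 3. The 2 vesicle comparisons share the 3 residual medium libraries. The summed level of 5 epithelial markers (EPCAM, CDH1, KRT8, KRT18 and KRT19) also differed along these groups. The sum was at 2044 to 2337 FPKM in untreated and residual medium libraries and at 824 to 1117 FPKM with vesicles. Over all HPDE libraries EPCAM stayed at 148 to 192 FPKM and CDH1 at 44.9 to 56.6 FPKM. KRT8 ranged from 158 to 674, KRT18 from 119 to 299 and KRT19 from 317 to 1139.7 FPKM, so the sum moved mainly through the keratins. The part of these markers in the chemokine values was not tested.

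PANC-1 and PPCL-68 vesicles, compared directly in HPDE, differed most in IL8, which was 2.03 times as high with PANC-1 vesicles (log2 difference 1.02, SE 0.09). CXCL1 was higher by 0.42 (SE 0.11) and CXCL2 by 0.24 (SE 0.10), and CXCL3 was lower, at -0.38 (SE 0.15). Libraries of the 2 vesicle groups did not overlap for any of the 4. The share of all genes without such overlap was not computed, so nothing is read from that count. IL8, CXCL1 and CXCL3 were called, 3 of 4, where 50.1% of all genes were called; the CXCL3 call was lost without any 1 of 5 of the 6 libraries, all but PPCL-68 vesicle replicate 3. IL8 therefore stood on opposite sides in the lines, lower with PANC-1 than with PPCL-68 vesicles in HPNE and higher in HPDE, with no overlap of libraries in either; the difference between the lines in this contrast was not tested.

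**Figure D2:**
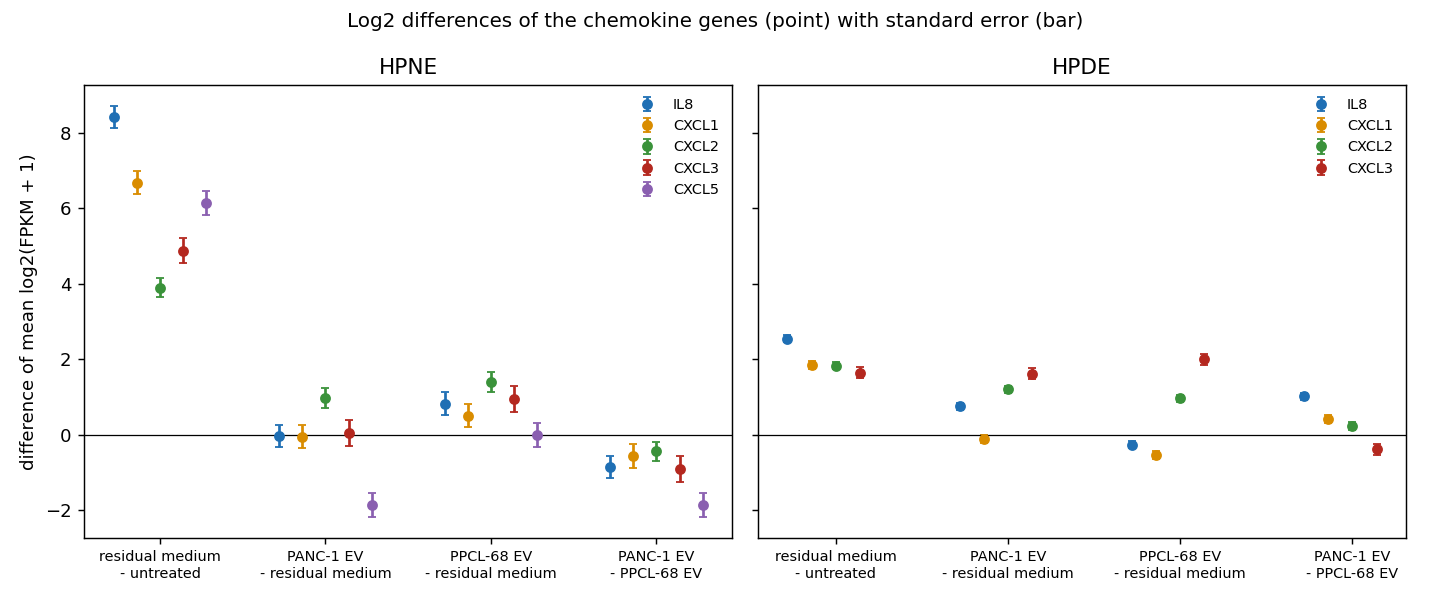
Difference of mean log2(FPKM + 1) between groups for each chemokine gene that entered the test (points; bars are standard errors from the linear model), in HPNE and HPDE cells for 4 comparisons. Residual medium minus untreated runs from 3.90 to 8.43 in HPNE and from 1.64 to 2.54 in HPDE, and CXCL5 in HPNE lies at -1.86 for PANC-1 vesicles against both residual medium and PPCL-68 vesicles.

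Put on a common scale, the residual medium difference was smaller in HPDE than in HPNE by 5.89 (SE 0.33) for IL8, 4.84 (SE 0.36) for CXCL1, 3.24 (SE 0.40) for CXCL3 and 2.07 (SE 0.30) for CXCL2. This contrast passed the threshold for 37.2% of the 13243 genes tested. For PANC-1 vesicles against residual medium the HPDE minus HPNE value was 1.58 (SE 0.40) for CXCL3, 0.78 (SE 0.33) for IL8, 0.23 (SE 0.30) for CXCL2 and -0.07 (SE 0.36) for CXCL1, where 21.1% of genes passed. For PPCL-68 vesicles it was 1.06 (SE 0.40) for CXCL3, -1.09 (SE 0.33) for IL8, -1.04 (SE 0.36) for CXCL1 and -0.44 (SE 0.30) for CXCL2, where 25.7% passed. For CXCL3 the value was above 0 with both kinds of vesicle. CXCL5, near 0 in HPDE, gave -5.99 (SE 0.36), 1.81 (SE 0.36) and -0.08 (SE 0.36) in the 3 contrasts, which is close to its HPNE difference with the sign turned. The 2 lines differ in background as well as in tissue markers, so none of these values belongs to a single property of a line.

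The make-up of the chemokine message differed between lines and treatments. Summed over the 6 genes, HPNE libraries held 6.14 ± 1.49 FPKM untreated (SD, n = 3), 1889 ± 595 FPKM in residual medium, 1718 ± 303 FPKM with PANC-1 vesicles and 3081 ± 438 FPKM with PPCL-68 vesicles. HPDE libraries held 121 ± 19.0, 519 ± 50.0, 947 ± 34.5 and 698 ± 48.2 FPKM in the same order. IL8 made up 51.3% ± 9.19 of the sum in untreated HPNE cells and 77.8% ± 5.70, 81.8% ± 2.64 and 81.9% ± 2.86 in the other groups, and it led in each HPNE group without overlapping the next gene. In HPDE the leading gene was CXCL2, at 44.6% ± 1.03 untreated, 47.1% ± 0.74 with PANC-1 vesicles and 54.4% ± 0.79 with PPCL-68 vesicles; in residual medium IL8 and CXCL2, at 40.2% ± 2.05 and 37.4% ± 0.50, had overlapping levels.

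The smaller shares moved as well. CXCL1 went from 21.8% ± 1.45 of the HPDE sum in untreated cells and 18.7% ± 2.37 in residual medium to 9.36% ± 0.30 and 9.47% ± 0.19 with PANC-1 and PPCL-68 vesicles. CXCL3 was at 4.48% ± 0.33, 3.68% ± 0.55, 6.38% ± 0.21 and 11.3% ± 0.43 over the 4 HPDE groups, and only with PPCL-68 vesicles did its level pass that of CXCL1, without overlap. In HPNE, CXCL5 held 6.86% ± 1.55 in residual medium, 1.93% ± 0.04 with PANC-1 vesicles and 4.04% ± 0.85 with PPCL-68 vesicles. Below IL8 the order of the HPNE genes was less sharp: neighbours from CXCL1 down to CXCL2 overlapped in residual medium, as did CXCL2, CXCL1, CXCL5 and CXCL3 in untreated cells.

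**Figure D3:**
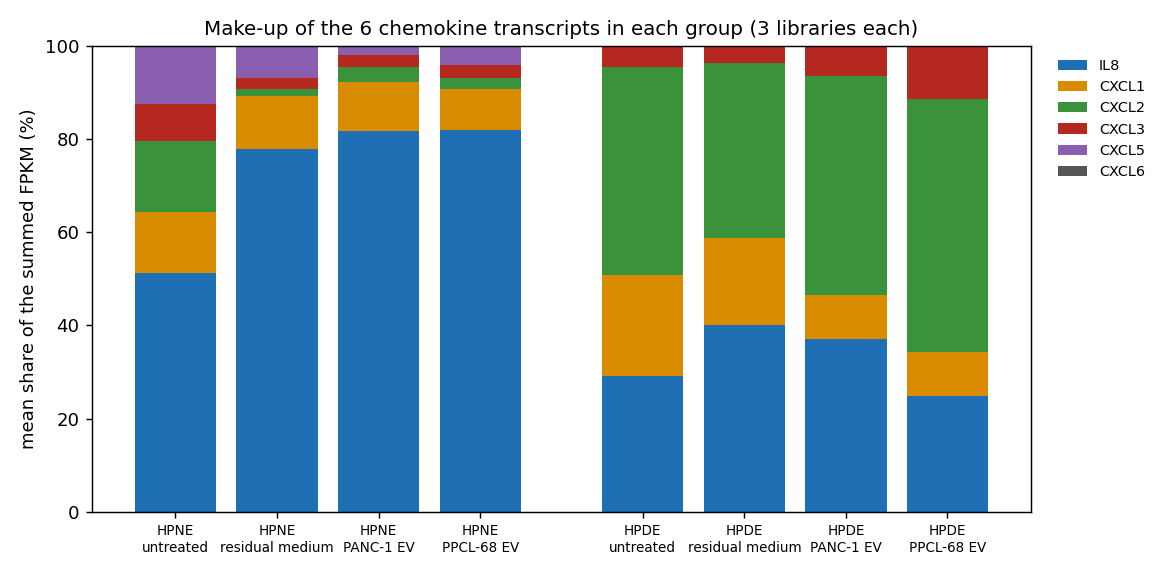
Mean share of each gene in the summed FPKM of the 6 chemokine genes, in percent, for the 8 groups of 3 libraries. IL8 fills 77.8 to 81.9% of the bar in the treated HPNE groups, while CXCL2 fills 37.4 to 54.4% in the HPDE groups.

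Among the genes that could receive the signal, little was found. CXCR1 had at most 1 read in any library and CXCR2, the receptor shared by all 6 ligands, at most 1 read in HPNE and 31 reads (0.286 FPKM) in HPDE. The erythrocyte chemokine receptor DARC had 0 reads in every library. Of 6 receptors and scavenging receptors listed, only CXCR7, a scavenger of other CXC ligands, reached the level for testing, and only in HPDE. The platelet members of the same chemokine cluster, PPBP, PF4 and PF4V1, had at most 8 reads.

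Other chemokines were followed in lists of 11 CXC and 11 CC and CX3C genes. These and the other lists were chosen with earlier results of these data known, so their counts and medians are descriptions. CCL20, which attracts CCR6-bearing lymphocytes and dendritic cells, was the only 1 of 11 listed CC and CX3C chemokines tested in HPNE; it was at 0.161 ± 0.088 FPKM in fresh medium and 10.03 ± 0.400 FPKM in residual medium there (log2 difference 3.25), entering the test only through the groups where it was high, and did not pass for either vesicle against residual medium (-0.10 and 0.31). In HPDE it rose in residual medium (1.05, adjusted p = 2.20e-09) and further with PANC-1 vesicles (1.13, adjusted p = 1.08e-10) and PPCL-68 vesicles (0.65, adjusted p = 2.02e-08). CXCL10 and CXCL11, ligands of the lymphocyte receptor CXCR3, were tested only in HPDE. CXCL10 rose with PANC-1 vesicles over residual medium by 2.10 (adjusted p = 2.99e-09), to 88.8 ± 15.6 FPKM, and CXCL11 by 0.45 (adjusted p = 0.00177). With PPCL-68 vesicles CXCL11 fell by 0.94 (adjusted p = 1.97e-06), and CXCL10 stood at -0.30 (adjusted p = 0.039), a call lost under size factors and without residual medium replicate 1 or 2 or PPCL-68 vesicle replicate 2 or 3. These and the following p-values come from limma over all genes tested, with 3 libraries a group.

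Cytokines that induce or accompany the chemokines were higher in residual medium in both lines. In HPNE 6 of 7 tested cytokines rose in residual medium over fresh medium and 1, CSF1, fell, with a list median of 2.60 against -0.05 for all genes tested. IL1B, a strong inducer of IL8, rose by 3.86 (adjusted p = 3.72e-06) from 1.81 ± 0.21 to 41.5 ± 13.7 FPKM, and LIF by 2.67 (adjusted p = 5.97e-05). IL6 and CSF2, counted among the 6, were below 1 FPKM in untreated HPNE cells and entered the test only through the treated groups, as did IL6 in HPDE; the IL6 log2 difference in HPNE, 3.34, is a description. Over all genes 43.9% were called in HPNE and 20.0% in HPDE. In HPDE 10 of 10 rose, with a median of 1.26 against -0.01 for all genes: IL1B rose by 1.78 (adjusted p = 8.64e-10) from 100.6 ± 4.8 to 349.8 ± 36.0 FPKM and CSF3, the granulocyte growth factor, by 1.60 (adjusted p = 1.44e-09). As the list was chosen with earlier results known, nothing is read from its counts and medians. TNF itself stayed at or below 0.438 FPKM in every library.

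With vesicles, the cytokine list went different ways in HPDE. Against residual medium, 9 of 10 tested cytokines rose with PANC-1 vesicles, among them IL24 by 2.29 (adjusted p = 3.58e-12). IL6, counted among the 9, entered the test only through the treated groups, so its log2 difference of 1.80 is a description. With PPCL-68 vesicles 5 rose and 1 fell (median 0.33): IL1B fell by 0.98 (adjusted p = 2.62e-08), to 176.8 ± 9.0 FPKM. In that group IL8 (-0.26) and CXCL1 (-0.54) were lower than in residual medium, and CXCL3 (2.00) and CXCL2 (0.96) were higher. A link between IL1B and the chemokines was not tested. In HPNE, 4 of 7 rose with PANC-1 vesicles, IL1B by 1.13 (adjusted p = 0.00899) and LIF by 1.30 (adjusted p = 0.00611) among them, and 2 of 7 with PPCL-68 vesicles, IL1B by 1.12 (adjusted p = 0.00501) among them. The shares of all genes called were 63.3% and 67.7% for the 2 vesicles in HPDE, and 24.2% and 39.9% in HPNE. The count of 4 was 2 without PANC-1 vesicle replicate 2 or residual medium replicate 1 or 2, and the count of 2 was 1 without PPCL-68 vesicle replicate 1 or residual medium replicate 1 or 2. The count of 4 includes IL6, which entered the test in HPNE only through the treated groups. The IL1B change with PPCL-68 vesicles was thus upward in HPNE and downward in HPDE, and the difference between lines was -2.10 (SE 0.27, adjusted p = 1.37e-05).

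NF-kB genes, which code for the factor that binds the motif printed above and for its own feedback inhibitors, were compared by the same steps. In residual medium over fresh medium 12 of 19 rose and 0 fell in HPNE (median 0.68), and 11 of 19 rose and 0 fell in HPDE (median 0.33); size factors, another scaling of the libraries, gave 14 and 12. BIRC3, 1 of the 12, entered the test in HPNE only through the treated groups. Over all genes 43.9% were called in HPNE and 20.0% in HPDE. In HPNE the feedback inhibitor TNFAIP3 rose by 2.39 (adjusted p = 3.04e-06), NFKBIZ, a nuclear co-activator, by 1.84 (adjusted p = 3.00e-05) and the subunit NFKB2 by 1.69 (adjusted p = 2.00e-06). In HPDE the same 3 rose by 0.65 (adjusted p = 0.000177), 1.27 (adjusted p = 1.06e-08) and 0.51 (adjusted p = 5.66e-06). The step was larger in HPNE for each: the difference between lines was -1.74 (adjusted p = 1.32e-06), -0.56 (adjusted p = 0.0178) and -1.18 (adjusted p = 2.81e-07). These 3 had been named for the largest differences in HPNE, which favours a larger step there, so nothing is read from these p-values. Of the genes named from this list for HPDE, IRAK2 differed between lines by -0.86 (adjusted p = 0.0056) and TNFAIP2 the other way, by 0.68 (adjusted p = 0.0121).

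The same list was then compared between vesicles and residual medium. In HPDE 13 of 19 rose and 1 fell with PANC-1 vesicles (median 0.45 against -0.04 for all genes), and 10 rose and 3 fell with PPCL-68 vesicles (median 0.26 against -0.03), where 63.3% and 67.7% of all genes were called. NFKB2 rose there by 0.86 (adjusted p = 2.89e-09) and 0.47 (adjusted p = 9.57e-07). In HPNE it did not pass with either (0.07, adjusted p = 0.598, and 0.05, adjusted p = 0.708), and the lines differed with PANC-1 vesicles by 0.79 (adjusted p = 4.92e-05). In HPNE 7 of 19 rose and 0 fell with PANC-1 vesicles, and 8 rose and 2 fell with PPCL-68 vesicles, where 24.2% and 39.9% of all genes were called. These HPNE counts depended on single libraries: 3 to 4 were called for PANC-1 vesicles without PANC-1 vesicle replicate 2 or 3 or residual medium replicate 1, and 6 for PPCL-68 vesicles without PPCL-68 vesicle replicate 2 or residual medium replicate 1.

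AP-1 and C/EBP factors act beside NF-kB on some chemokine promoters. In residual medium over fresh medium 2 of 12 rose and 1 fell in HPNE and 6 of 13 rose in HPDE, where 43.9% and 20.0% of all genes were called; in HPNE 2 rose and 4 fell without untreated replicate 3 or residual medium replicate 3. Over residual medium, 5 of 12 rose with PANC-1 and 4 of 12 with PPCL-68 vesicles in HPNE, with none lower, and 7 and 9 of 13 rose in HPDE, with 2 lower each time. Over all genes, 24.2% (PANC-1) and 39.9% (PPCL-68) passed in HPNE, against 63.3% and 67.7% in HPDE, so the PPCL-68 count in HPNE is below its background. The 5 in HPNE became 3 without any 1 PANC-1 vesicle library and without residual medium replicate 1 or 2. DDIT3, ATF3 and CEBPG, factors of the cell's stress response, were called with both vesicles in both lines: in HPNE DDIT3 rose by 2.15 with PANC-1 vesicles (adjusted p = 0.00193) and 2.12 with PPCL-68 vesicles (adjusted p = 0.000906), and ATF3 by 1.63 (adjusted p = 0.000456) and 2.31 (adjusted p = 3.14e-05), and CEBPG by 1.2 (adjusted p = 0.000304) and 1.44 (adjusted p = 4.28e-05). DDIT3 was the 1 factor that fell in HPNE residual medium over fresh medium (-0.93, adjusted p = 0.045). Its rise over fresh medium was therefore smaller than over residual medium, though still called with both vesicles. In HPDE the DDIT3 values were 2.67 (adjusted p = 1.75e-11) and 2.24 (adjusted p = 6.10e-11), the ATF3 values 1.2 (adjusted p = 2.16e-07) and 1.18 (adjusted p = 1.56e-07), and the CEBPG values 1.36 (adjusted p = 1.46e-11) and 1.18 (adjusted p = 3.00e-11).

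Of 9 regulators of chemokine messenger RNA decay, 4 rose and 3 fell in HPNE residual medium over fresh medium, and 3 rose and 2 fell in HPDE; the HPNE counts were 3 and 1 without untreated replicate 1 or 2 or residual medium replicate 1 or 2. Over all genes 43.9% and 20.0% were called. ZC3H12A, a nuclease that degrades such transcripts, rose by 1.31 (adjusted p = 0.0136) in HPNE and 1.015 (adjusted p = 1.87e-08) in HPDE. HNRNPD, an AU-rich element binding protein linked to decay, rose in HPNE residual medium by 0.47 (adjusted p = 0.00306) and fell with PANC-1 and PPCL-68 vesicles against it by 0.50 and 0.49 (adjusted p = 0.00424 and 0.00229). In HPDE it fell with both vesicles against residual medium, PANC-1 by 0.21 (adjusted p = 0.00131) and PPCL-68 by 0.79 (adjusted p = 1.98e-09). In HPDE 5 of the 9 rose and 2 fell with PANC-1 vesicles, and 6 rose and 3 fell with PPCL-68 vesicles, where 63.3% and 67.7% of all genes were called.

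A list of 15 upstream cytokine and Toll-like receptors and partners showed no single direction. It includes the adaptor MYD88, the antagonist IL1RN and the interleukin-6 receptor genes IL6R and IL6ST. The counts therefore cover more than receptors that act through NF-kB. In HPNE 2 of 10 rose and 4 fell in residual medium; TLR4, the endotoxin receptor, fell by 1.06 (adjusted p = 0.000194), and TLR2, which senses bacterial lipopeptides, was higher by 0.96 but entered the test only through the treated groups. In HPDE 2 of 12 rose and 2 fell, and TLR2 rose by 0.36 (adjusted p = 0.00206). With PANC-1 vesicles over residual medium 3 rose and 0 fell in HPNE (1 rose without PANC-1 vesicle replicate 2 or residual medium replicate 1 or 2) and 4 rose and 3 fell in HPDE; with PPCL-68 vesicles 4 rose and 1 fell in HPNE and 3 rose and 4 fell in HPDE. The shares of all genes called in these 6 comparisons are those given for the preceding lists.

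Proteases can cut chemokines, and surface proteoglycans and adhesion molecules display them or hold neutrophils. The collagenase MMP1 rose in residual medium by 3.18 in HPNE (adjusted p = 8.69e-05) and 1.19 in HPDE (adjusted p = 0.000128), as 1 of 6 tested proteases to rise in HPNE, with 1 lower (2 and 2 without untreated replicate 3), and 4 of 5 in HPDE. Of the surface molecules, 2 of 6 rose (ICAM1 and SDC4) and 3 fell (SDC2, SDC3 and GPC1) in HPNE residual medium, and 2 of 5 rose (ICAM1 and SDC4) and 2 fell (SDC1 and GPC1) in HPDE. For both lists the share of all genes called was 43.9% in HPNE and 20.0% in HPDE, so the HPNE protease count is below its background. The proteoglycan GPC1 fell by 1.21 in HPNE (adjusted p = 7.15e-05) and 0.22 in HPDE (adjusted p = 0.0059). ICAM1, the endothelial and epithelial ligand of neutrophil integrins, rose in residual medium by 2.39 in HPNE (adjusted p = 7.06e-07) and 0.47 in HPDE (adjusted p = 1.68e-05). It rose over residual medium with PANC-1 vesicles in both lines, by 0.91 (adjusted p = 0.000713) and 0.72 (adjusted p = 2.80e-08), and with PPCL-68 vesicles in HPNE by 0.65 (adjusted p = 0.00164), while in HPDE it stood at 0.09 (adjusted p = 0.116); the lines differed in the last (-0.56, adjusted p = 0.00315). The proteoglycan SDC4 rose in HPDE residual medium by 0.75 (adjusted p = 3.08e-08), rose further with PANC-1 vesicles by 0.48 (adjusted p = 3.54e-07) and fell with PPCL-68 vesicles by 0.29 (adjusted p = 3.85e-05).

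**Figure D4:**
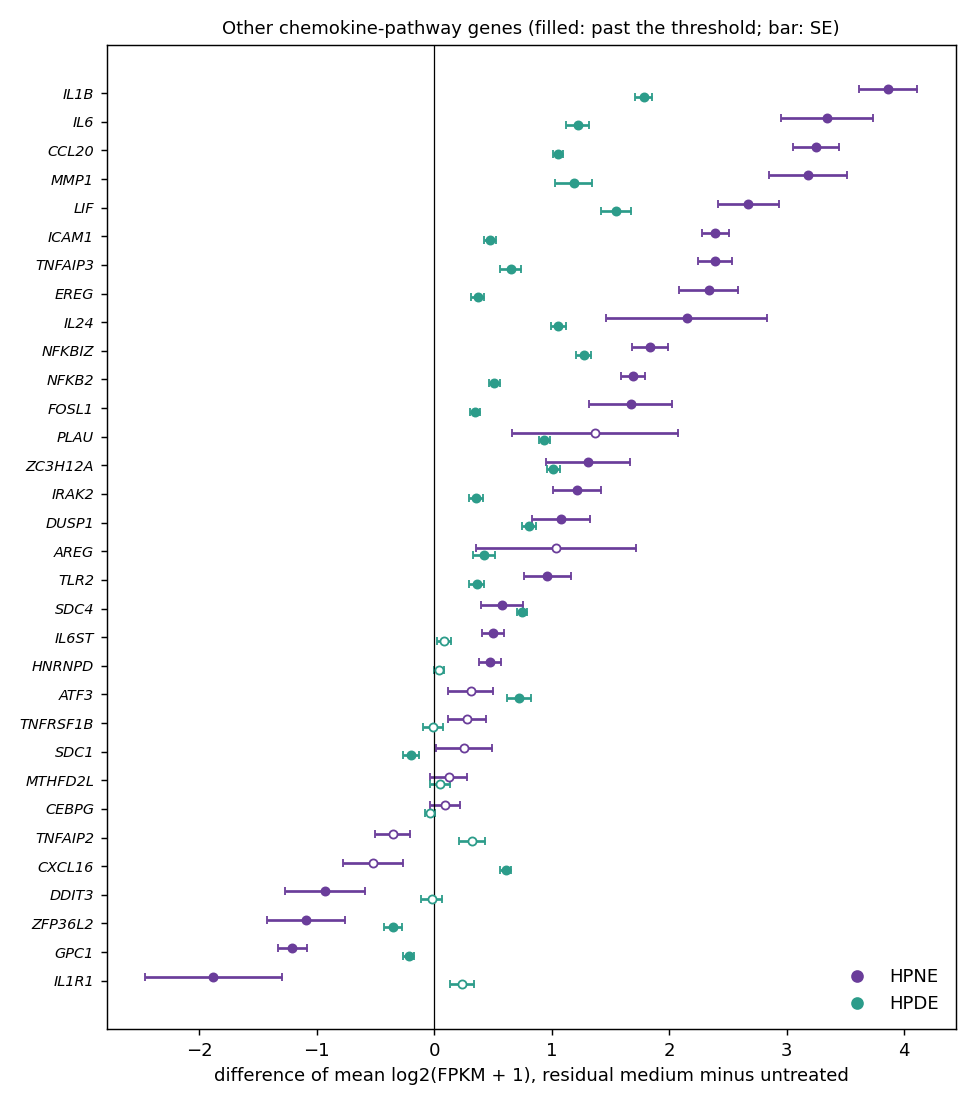
Difference of mean log2(FPKM + 1), residual medium minus untreated, for the 32 genes named from the lists, other than the 6 chemokines, that were tested in both lines (points, filled where the adjusted p was under 0.05; bars are standard errors), sorted by the HPNE value. IL1B lies at 3.86 in HPNE and 1.78 in HPDE, and TNFAIP3 at 2.39 and 0.65.

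Beyond the cluster on chromosome 4 lie genes of the epidermal growth factor family. Of 14 listed neighbours, 4 were tested in HPNE and 7 in HPDE. EREG, 625 kb beyond the start of IL8, rose in HPNE residual medium by 2.34 (adjusted p = 0.000102) and over it with PANC-1 vesicles by 1.14 (adjusted p = 0.0091) and PPCL-68 vesicles by 1.41 (adjusted p = 0.00155). In HPDE it rose by 0.37 in residual medium (adjusted p = 0.000375) and over it by 1.5 with PANC-1 vesicles (adjusted p = 3.18e-11) and 1.76 with PPCL-68 vesicles (adjusted p = 4.91e-12). EPGN, 568 kb beyond, was tested in HPDE only and rose there with both vesicles over residual medium, by 1.47 (adjusted p = 6.36e-10) and 1.57 (adjusted p = 1.81e-10). MTHFD2L, the gene next to CXCL2, 374 kb beyond the start of IL8, had group means between 1.57 and 3.50 FPKM. It was called in HPNE with PPCL-68 vesicles over residual medium (0.52, adjusted p = 0.0232), a call lost without residual medium replicate 1 or 3 or PPCL-68 vesicle replicate 1. In residual medium over fresh medium 1 of 4 neighbours rose in HPNE, and 2 of 7 rose and 1 fell in HPDE. The share of all genes called there was 43.9% in HPNE and 20.0% in HPDE. Over residual medium 1 of 4 rose with PANC-1 (2 without residual medium replicate 3) and 3 of 4 with PPCL-68 vesicles in HPNE (1 without residual medium replicate 1 or PPCL-68 vesicle replicate 1), where 24.2% and 39.9% of all genes were called. In HPDE 6 of 7 rose with PANC-1 and 4 of 7 with PPCL-68 vesicles, where 63.3% and 67.7% were called.

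**Figure D5:**
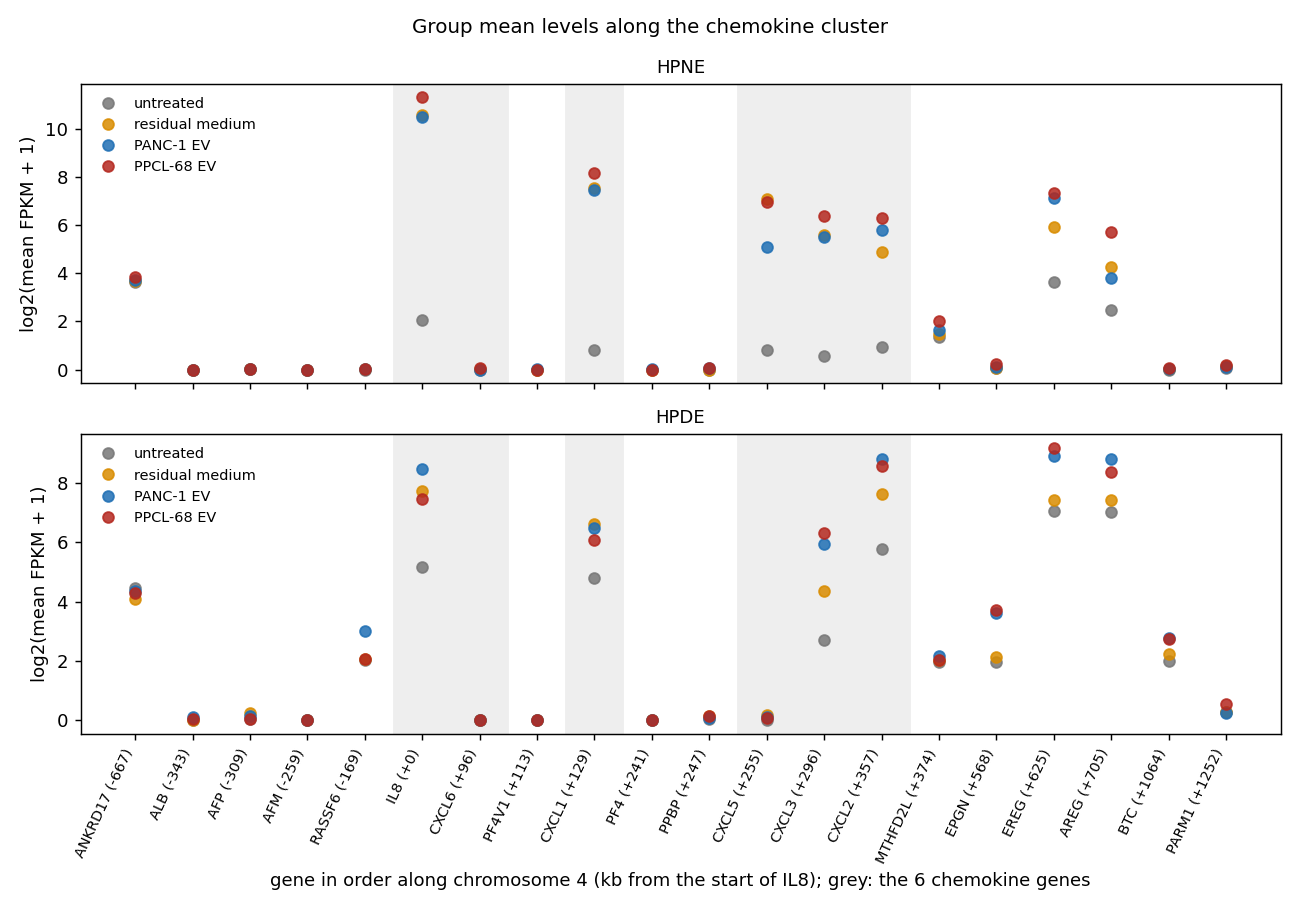
Group mean level, as log2(mean FPKM + 1), of the 6 chemokine genes (grey bands) and 14 neighbours in their order along chromosome 4, labelled with the distance in kb from the start of IL8, for 4 treatments in HPNE (top) and HPDE (bottom). In HPNE the untreated points of IL8, CXCL1, CXCL5, CXCL3 and CXCL2 lie far below the others, and EREG, 625 kb away, shows a smaller step.

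Genes whose level followed that of IL8 most closely over the 12 libraries of a line are named as a description, since likeness chose them. In HPNE they were NFKB2 (Pearson r = 0.994), SERPINB2 (0.987), CCL20 (0.986) and MMP1 (0.983), and among the other chemokines CXCL3 reached 0.991, CXCL1 0.987, CXCL2 0.976 and CXCL5 0.959. Over the 9 treated libraries alone, r was 0.953 for CXCL3, 0.916 for SERPINB2, 0.913 for MMP1, 0.723 for CXCL2, 0.635 for NFKB2, 0.612 for CXCL5, 0.457 for CCL20 and 0.293 for CXCL1. In HPDE the closest were IL36G (0.986), NFKBIZ (0.984), CSF3 (0.984), PLAU (0.973) and PMAIP1 (0.973), and CXCL1 reached 0.948, CXCL2 0.932 and CXCL3 0.829. Over the 9 treated HPDE libraries r was 0.931 for PLAU, 0.883 for IL36G, 0.870 for PMAIP1, 0.856 for CSF3 and 0.847 for NFKBIZ. For the other chemokines it was 0.507 for CXCL1, 0.461 for CXCL2 and 0.139 for CXCL3. All values of a library share its depth and its scaling.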

How the data were processed

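RNA-seq of total RNA was deposited for 24 libraries. Per the submitters' processing notes, CASAVA, STAR, HTSeq and DESeq2 were used with build hg19; versions and the handling of multiply mapped reads are not given in the sources used here. The authors deposited FPKM for 48162 genes per library, per the file headers, with no pooling. The library kit kept no strand, per the labels' protocols. Multiplied by gene length, 100% of values were whole multiples of 1 read (tolerance 0.01), so reads per gene were recovered. Reads that match near-identical genes could have been lost or shared: of all 50-base stretches of the GENCODE v29 transcripts, 4.81% of CXCL1, 12.5% of CXCL2 and 6.01% of CXCL3 occurred in another of the 6 genes.

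Tests used limma 3.58.1 (R 4.3.3; lmFit, eBayes with trend) on log2(FPKM + 1), for genes with a mean of at least 1 FPKM over the 12 libraries of a line, with 8 residual degrees of freedom, two-sided, Benjamini-Hochberg adjusted, threshold 0.05. Differences between lines were interaction contrasts over 24 libraries. The 6 genes and all lists were chosen with earlier results of these data known. Other genes are named by 2 rules: up to 3 per list and line with the largest difference past the threshold, and up to 5 most like IL8 per line, of which 1 is not reported here; a few more are named for a count. Of 129 listed other genes, 129 were found. Promoters were aligned globally with Biopython 1.88. The fits were tested on simulated data.

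Same-numbered libraries deviated together in every pair only for the 2 vesicle groups of HPNE (correlations of deviations 0.565, 0.292 and 0.500). Replicate 1 was the library that stood apart in both of these groups, and the correlations cannot tell pairing from that. Whether the numbers pair those samples was not tested. Between these 2 groups the block gave 550 calls in place of 629. Alternatives were a pseudocount of 0.1, no filter, size factors, only the groups compared, the replicate number as a block, each library left out and, chosen after seeing the data, voom on recovered reads. Size factors moved the median of all HPNE genes and the direction of calls: in residual medium against untreated, 2153 genes were higher and 2899 lower by FPKM, and 3328 and 2083 by size factors.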

Additional observations from a re-analysis of the deposited data

Results flagged for a closer look

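IL8 differed between the 2 kinds of vesicle in opposite directions in the 2 lines: PANC-1 minus PPCL-68 was -0.85 in HPNE and 1.02 in HPDE on the log2(FPKM + 1) scale, with every library of one vesicle group on the same side of the other. The HPDE difference was called; the HPNE difference was called under none of the settings run. The difference between the lines was not tested.

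Of 32 genes named from the lists and tested in both lines, the size of the change differed between lines, by an interaction contrast in limma, for 19 in residual medium against fresh medium, for 9 with PANC-1 vesicles against residual medium and for 11 with PPCL-68 vesicles against residual medium. The same contrasts passed for 37.2%, 21.1% and 25.7% of all genes tested. The 32 genes had been named for the largest differences past the threshold within a line, so nothing is read from these counts. For 3 of the 32 genes the change with PPCL-68 vesicles was called in opposite directions. IL1B rose in HPNE by 1.12 and fell in HPDE by 0.98, a difference of -2.10 (adjusted p = 1.37e-05). TNFAIP2, a gene induced by tumour necrosis factor, rose in HPNE by 0.75 and stood at -0.30 in HPDE (difference -1.05, adjusted p = 0.000605); the HPDE call alone was lost without PPCL-68 vesicle replicate 1 or residual medium replicate 2 or 3. SDC4 stood at 0.50 in HPNE and fell by 0.29 in HPDE (difference -0.79, adjusted p = 0.00461); the HPNE call was lost under size factors, with the block and without residual medium replicate 1 or 2 or PPCL-68 vesicle replicate 1 or 2.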

How the results depend on the processing

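Of the chemokine differences refitted under other settings, 624 moved by less than the spread between replicates and 24 by more. Fits that left out 1 library made up 324 of the 624. Leaving out 1 of 3 libraries cannot move a group mean by more than that spread, so nothing is read from these 324. The 24 came from a pseudocount of 0.1 (12) and from voom (12). Counts of genes called changed by over 1.5 times in few settings. With only the groups compared, PANC-1 vesicles against residual medium in HPNE gave 1436 calls in place of 2784 and PANC-1 against PPCL-68 vesicles 323 in place of 629; with no filter, the latter gave 335, and residual medium against untreated in HPDE 1527 in place of 2443. Leaving out 1 library at a time gave 3044 to 6049 calls for residual medium against untreated in HPNE, 1344 to 4443 for PANC-1 vesicles against residual medium, 1046 to 3070 for PANC-1 vesicles against untreated, 135 to 916 for PANC-1 against PPCL-68 vesicles, 1423 to 2110 for residual medium against untreated in HPDE and 2136 to 4522 for the difference between lines with PANC-1 vesicles. The cause was not tested.

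Under the replicate block, the CXCL3 and IL8 calls of PPCL-68 vesicles against residual medium in HPNE were lost, CXCL2 was still called, and no other chemokine call changed; calls over all genes were 4521 in place of 4595. The CXCL2 call for PANC-1 vesicles in HPNE and the IL8 call for PPCL-68 vesicles in HPDE were lost with no filter. The IL8 and CXCL3 calls for PPCL-68 vesicles in HPNE were lost with no filter and with only the groups compared, and the IL8 call with a pseudocount of 0.1. The CXCL3 call between vesicles in HPDE was lost with no filter and with a pseudocount of 0.1. Differences between lines turned sign for genes near 0 in HPNE: CSF3 in residual medium (-0.20 with a pseudocount of 0.1, -2.14 with voom), MMP9 with PANC-1 vesicles (-0.35 and -2.41) and with PPCL-68 vesicles (-1.66 with voom), and CXCL10 with PANC-1 vesicles (-0.15 with voom). Depth limits only CXCL5 in HPDE and CXCL6.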
